A study of Homo sapiens with 6 samples.

Results

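Neurotransmitter receptors are the membrane proteins through which a cell reads glutamate, GABA, glycine, acetylcholine, serotonin, dopamine and the other catecholamines. Their genes were followed here in a small cell lung cancer line with and without a chemotherapy drug. Probes were taken as members when the platform annotation named exactly 1 gene whose symbol matched a pattern for ionotropic and metabotropic glutamate, GABA-A, GABA-B, nicotinic, muscarinic, serotonin, dopamine, adrenergic or glycine receptors. This gave 138 probes for 100 genes, out of 31741 probes and 18336 named genes on the array. The patterns used names alone and no measured value. Another 2 matching probes, shared by DRD5 and a second gene and by CHRNA7 and CHRFAM7A, named several genes and were left out. Among the 100 genes, 4 encode no receptor subunit of their own: GRID1-AS1 is a long noncoding RNA, GRID2IP is a scaffold protein, and HTR7P1 and GLRA4 are annotated as transcribed pseudogenes.

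The study measured 3 drug flasks (drug 1, 3 and 4) and 3 control flasks (control 2, 5 and 6) of NCI-H446, an established human line, each on its own single-colour array, to find genes that differ after treatment. The drug flasks received an unnamed chemotherapy drug with neither dose nor exposure time stated, and the control flasks received 15 µl of DMSO, a common drug solvent. Whether the drug flasks held the same amount of DMSO was not stated, and all flasks come from 1 line. The source names number the cell line and the DMSO volume upward from sample to sample, so the sample characteristics, which give the same line for every flask, were used.

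These receptors fall into ion channels and G protein-coupled receptors. Channels are built from several subunits, and the subunit mix sets the ion passed, the affinity and the speed: glutamate, nicotinic and 5-HT3 channels pass cations and excite, while GABA-A and glycine channels pass chloride and usually inhibit. G protein-coupled receptors act more slowly through cyclic AMP, phospholipase C or potassium channels. Small cell lung cancer is a neuroendocrine tumour, and nicotinic and muscarinic receptors in particular are known in lung epithelium and in such tumours, where acetylcholine and nicotine can act on them.

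Values below are log2(intensity + 1) after quantile normalization. Fold changes are drug over control, and passing the test means an adjusted p below 0.05 from limma, adjusted over all 31741 probes. A probe is called dim in a group when its mean lies under 6.86, the lower quartile of all probes. The array medians of the deposited intensities ran from 421 to 476 on the drug arrays and from 376 to 439 on the control arrays. Deposited values below 0 numbered 462 on control 2 and 968 on control 5. There were 0 on control 6, drug 1 and drug 3, and 1 on drug 4. The part of this difference in the changes of dim probes was not tested. Of 10 measured small cell and neuroendocrine markers, 3 rose (NCAM1, ENO2 and SYP) and none fell. Over all genes, 35.1% passed, 17.6% higher and 17.5% lower. NEUROD1 and GRP were dim in both groups. Of 15 measured markers of fibroblasts or endothelium, blood cells and glia, CD14 rose and COL1A1 and MBP fell, beside the same 35.1% of all genes. COL3A1, DCN, CD3E, PTPRC, AQP4 and GFAP were dim in both groups. The summed normalized intensity of the 8 fibroblast and endothelium markers ran from 7656 to 8925 on the drug arrays, against 28754 to 33288 on the control arrays, and without COL1A1 from 1688 to 1943 against 1760 to 1803. That of the 4 blood markers ran from 3373 to 3581 against 2074 to 2378, and without CD14 from 443 to 465 against 362 to 470. That of the 3 glia markers ran from 3484 to 4149 against 7007 to 9562, and without MBP from 101 to 110 against 102 to 130. Each of these sums thus rests mainly on 1 gene. The part of these markers in the results below was not tested.

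Most receptor genes did not pass the test, and those that passed were mostly higher in the drug flasks. Of the 138 probes, 13 were higher and 2 lower, which is 10.9%, where 31.5% of all probes passed, 15.4% higher and 16.1% lower. The count of lower receptor probes was 5 without control 2 and 4 without drug 4 or without control 6, with 13 higher in each case. Read gene by gene from the probe with the highest mean, 11 of 100 genes rose and 2 fell, where 35.1% of all genes passed, 17.6% higher and 17.5% lower. The genes that rose were GLRB, GRIK2, GABRD, HTR7P1, DRD2, CHRNB2, CHRM4, CHRNA10, CHRNA3, CHRNA5 and ADRA1B, and those that fell were HTR1D and CHRNB1. At least 2-fold, 7 genes rose and 1 fell, together 8 of 100, where 15.7% of all genes passed with such a fold, 8.02% higher and 7.68% lower. The median log2 fold change was 0.055 over the receptor probes and -0.0057 over all probes.

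**Figure D1:**
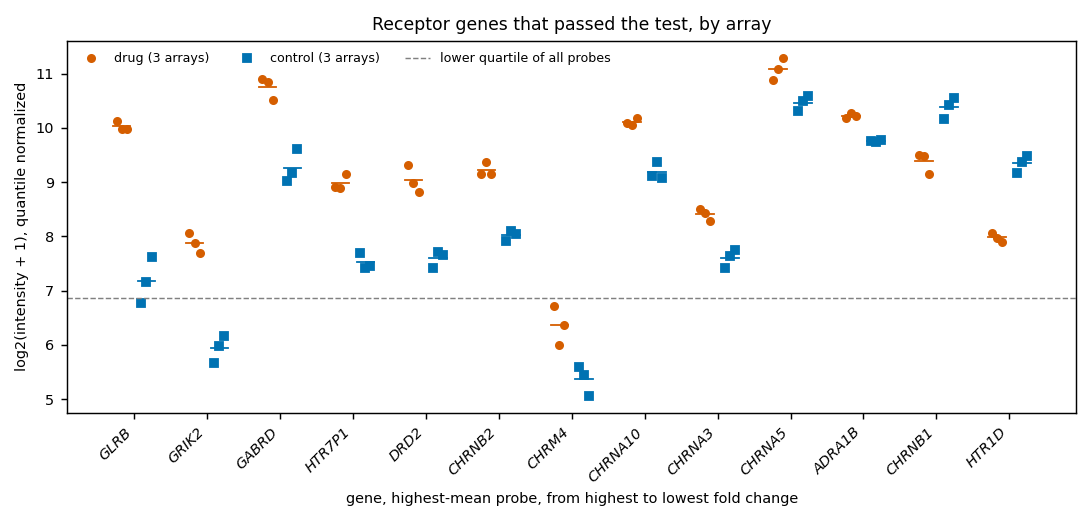
Log2(intensity + 1) on each array (y axis) for the 13 receptor genes that passed the test (x axis, ordered by fold change), with drug arrays as circles left of control arrays as squares, group means as short lines and the lower quartile of all probes dashed. The groups do not overlap for any of the 13 genes, and CHRM4 lies below the dashed line in both groups.

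Signal level bears on these counts. Of the 138 receptor probes, 49 (35.5%) were dim in both groups, against 22.4% of all probes, and a further 7 were dim in the control flasks alone and 1 in the drug flasks alone. Among the 89 receptor probes that were not dim in both groups, 11 were higher and 2 lower, or 14.6%, where 38.6% of all such probes passed, 18.8% higher and 19.8% lower. Among the 49 that were dim in both groups, 2 were higher and 0 lower by limma, or 4.08%, where 6.96% of all such probes passed, 3.75% higher and 3.21% lower. Among probes not dim in both groups, the share that passed was thus below that of the whole array, as a description of these probes. Among the dim ones it rests on 2 probes, and the share higher, 4.08%, was near the 3.75% of all such probes. The 3 drug arrays lay wholly above the 3 control arrays for 22 receptor probes and wholly below for 9, together 22.5%, where 43.2% of all probes were separated in this way.

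**Figure D2:**
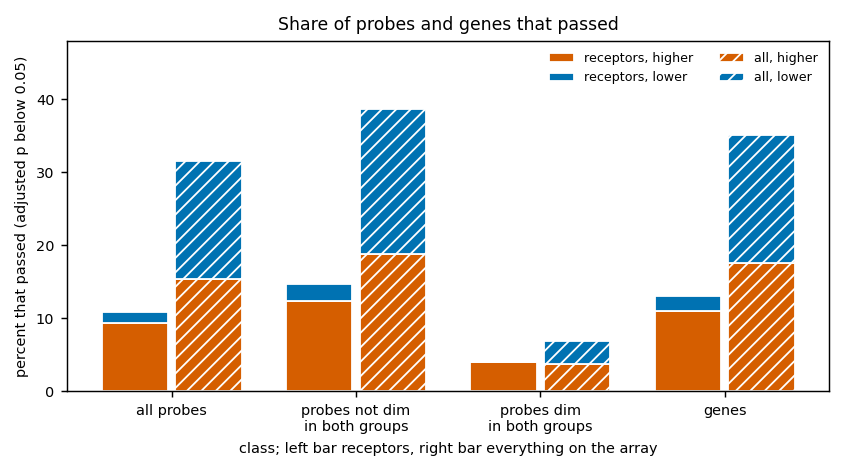
Percent of probes or genes that passed the test (y axis), split into higher and lower in the drug flasks, for the receptors (left, plain bars) and for everything on the array (right, hatched bars) in 4 classes. The receptor bar is lower in each class, at 14.6% against 38.6% for probes not dim in both groups. For probes dim in both groups it rests on 2 receptor probes.

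The fold change that was largest among the receptor genes belonged to a chloride channel subunit. GLRB, the glycine receptor beta subunit, which anchors the receptor to gephyrin at inhibitory synapses, read 10.13, 9.98 and 9.98 on drug 1, 3 and 4, and 6.76, 7.15 and 7.63 on control 2, 5 and 6. Every drug array lay more than 2 log2 units above every control array. The log2 fold change was 2.85 (SE 0.217, adjusted p = 0.000111), which is 7.20-fold. The alpha subunits, which carry the ligand site together with the beta subunit, did not pass: GLRA1, dim in both groups, stood at -0.19, GLRA2 at -0.02 on its highest-mean probe, and GLRA3 at 0.25 (95% interval -0.41 to 0.91). GRIA2, the gene next to GLRB in the RefSeq order, did not pass either.

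**Figure D3:**
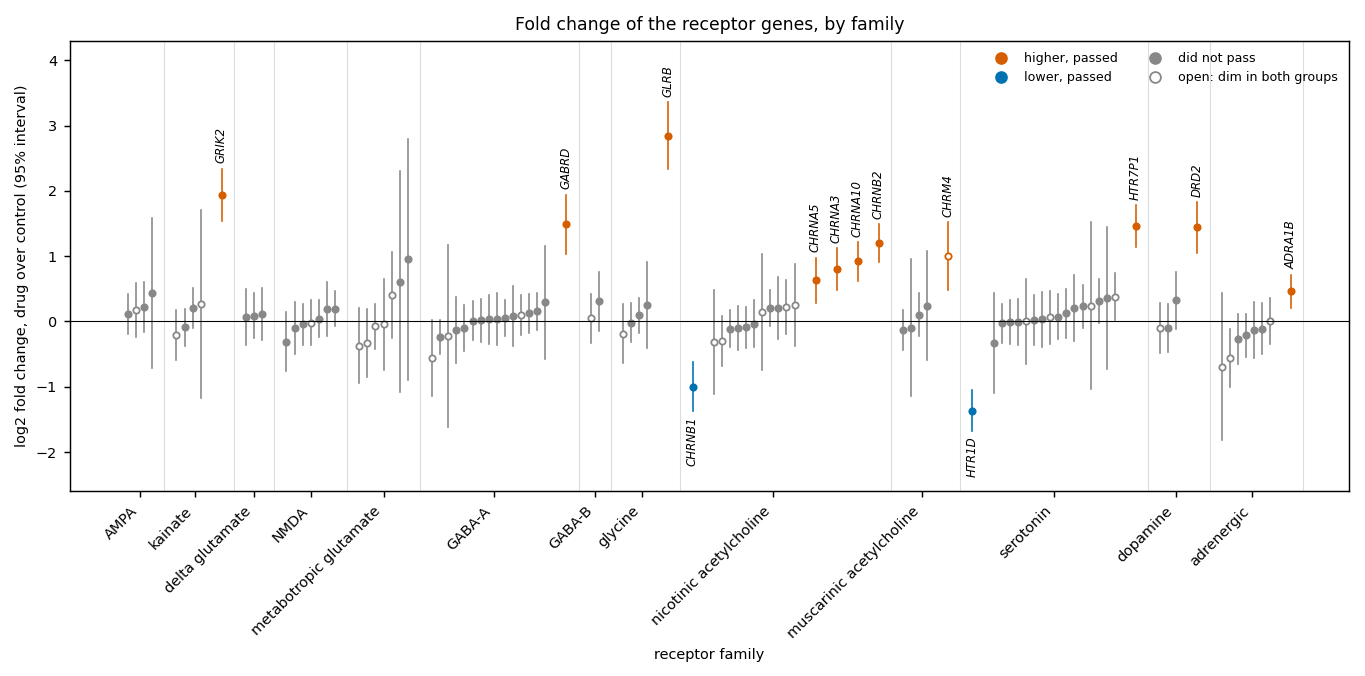
Log2 fold change, drug over control, with its 95% interval (y axis) for each of the 100 receptor genes on its highest-mean probe, grouped by family (x axis). Orange genes were higher and blue genes lower, grey genes did not pass, and open circles mark genes dim in both groups. GLRB stands highest at 2.85 and HTR1D lowest at -1.36.

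GABRD encodes the delta subunit of GABA-A receptors, found in extrasynaptic receptors that carry tonic inhibition. It read 10.90, 10.85 and 10.51 on the drug arrays and 9.01, 9.17 and 9.61 on the control arrays, with no overlap. The log2 fold change was 1.49 (SE 0.194, adjusted p = 0.00106). It was the 1 gene of 16 in its family that passed, where 35.1% of all genes did. The alpha and beta subunits with which delta assembles gave intervals that held 0, among them GABRA4 at 0.06 and GABRB2 at 0.03, and GABRA6 at 0.01. For the GABA-B receptor, the G protein-coupled receptor for GABA, GABBR1 stood at 0.31 (95% interval -0.14 to 0.76) and GABBR2, dim in both groups, at 0.05, and neither of its 2 genes had a limma p below 0.05 before adjustment.

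Among the ionotropic and metabotropic glutamate receptor genes, GRIK2 was the 1 that passed. GRIK2 encodes a kainate receptor subunit that forms channels alone or with the GRIK4 and GRIK5 products. Its brighter probe read 8.07, 7.87 and 7.69 on the drug arrays and 5.67, 5.98 and 6.17 on the control arrays, where it was dim. The drug and control arrays did not overlap, and the log2 fold change was 1.94 (SE 0.171, adjusted p = 0.000199). With values under the lower quartile raised to that quartile it became 1.02 (adjusted p = 0.00358), so its size rests on the dim control values. The other GRIK2 probe, dim in both groups, read 6.14, 5.96 and 6.43 on the drug arrays and 5.14, 5.64 and 5.50 on the control arrays, again without overlap. Its log2 fold change was 0.75 (SE 0.185, adjusted p = 0.0188), and it no longer passed in 6 of 13 alternatives (adjusted p up to 1), among them without drug 1 (0.0539), drug 4 (0.0586) or control 2 (0.0516). Its change was 1.51 with the values as deposited, 1.38 with median centring (adjusted p = 0.068) and 0 with values raised to the lower quartile.

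The AMPA, NMDA, delta and metabotropic glutamate families had 4, 7, 3 and 7 genes and none that passed; by limma, 0 of them had p below 0.05 before adjustment on their highest-mean probes. Other probes of 4 of these genes lay below 0.05 before adjustment and did not pass after it: GRIA3 at -0.46 (limma, adjusted p = 0.0531), GRIN1 at 0.33 (0.0567), GRIN2A at -0.45 (0.0681) and GRIN2D at 0.52 (0.0829). AMPA receptors carry fast excitation, and GRIA1 and GRIA4 stood at 0.11 and 0.22 on their highest-mean probes, with intervals from -0.20 to 0.42 and from -0.16 to 0.60. Every other probe of GRIA1 and of GRIA4 was dim in both groups and did not pass, so these intervals hold for a single bright probe of each gene. GRIA2, whose product makes AMPA channels impermeable to calcium, stood at 0.44 on its highest-mean probe (95% interval -0.71 to 1.59), the furthest from 0 of the family's 4 genes so read, and at -0.47 on its other probe, dim in both groups. NMDA receptors are calcium-permeable channels that need glycine as well as glutamate. GRIN1, their obligatory subunit, stood at 0.19 on its highest-mean probe, and GRIN2C at -0.31 (95% interval -0.76 to 0.14). GRM4, a presynaptic receptor coupled to inhibitory G proteins, read 11.05, 11.20 and 10.29 on the drug arrays and 11.01, 10.77 and 7.91 on the control arrays. Control 6 alone lay far below the rest, and without it the GRM4 difference was -0.04 in place of 0.95. GRID1, which encodes a delta subunit, stood at 0.12 and GRID2IP at 0.07.

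Nicotinic receptors are pentameric cation channels opened by acetylcholine, and their genes held 5 of the 13 that passed, out of 16 genes in the family, 4 that rose and 1 that fell, where 35.1% of all genes passed. CHRNB2, which pairs with alpha4 in the common brain receptor, read 9.15, 9.37 and 9.15 on the drug arrays and 7.92, 8.10 and 8.03 on the control arrays. The arrays of the groups lay more than 1 log2 unit apart, and the log2 fold change was 1.20 (SE 0.125, adjusted p = 0.000396). Its other probe, however, was dim in neither group and showed a difference of 0.01 (95% interval -0.32 to 0.34). The mean over both probes gave 0.60 (adjusted p = 0.00351). CHRNA10, known from alpha9alpha10 receptors of cochlear hair cells, read 10.09, 10.05 and 10.18 on the drug arrays and 9.11, 9.36 and 9.08 on the control arrays. It has 1 probe, and its log2 fold change was 0.92 (SE 0.128, adjusted p = 0.0014). CHRNA9 is its usual partner and CHRNA4 that of CHRNB2; both were dim in both groups and neither passed.

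CHRNA5, CHRNA3 and CHRNB4 lie side by side in the genome, in a block known for variants linked to nicotine dependence and lung cancer. CHRNA3, the alpha subunit of ganglionic receptors, read 8.50, 8.44 and 8.29 on the drug arrays and 7.42, 7.64 and 7.75 on the control arrays. CHRNA5, an accessory subunit that joins alpha3beta4 receptors, read 10.89, 11.09 and 11.29 on the drug arrays and 10.31, 10.49 and 10.59 on the control arrays. Neither gene showed overlap between the groups. The log2 fold changes were 0.81 for CHRNA3 (SE 0.136, adjusted p = 0.00335) and 0.63 for CHRNA5 (SE 0.149, adjusted p = 0.016). CHRNB4, the beta subunit of the same receptor, read 7.19, 7.33 and 6.97 on the drug arrays and 7.10, 7.34 and 7.34 on the control arrays, a difference of -0.10 (95% interval -0.44 to 0.24). The second probes of CHRNA3 and CHRNA5 stood at 0.22 and 0.05 and did not pass. That of CHRNA3 was dim in neither group, and its drug arrays lay wholly above its control arrays. That of CHRNA5 was dim in both groups. CHRNA3 and CHRNA5 overlap in the RefSeq annotation, and the strand and position of the probes were not used here. The CHRNA5 call was lost without drug 3 (adjusted p = 0.0583), with median centring (0.0673) and against a minimum log2 change of 0.5 (0.817), and the CHRNA3 call was lost against that minimum (0.164).

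CHRNB1, the beta subunit of the muscle receptor, ran the other way. It read 9.50, 9.49 and 9.16 on the drug arrays and 10.16, 10.42 and 10.55 on the control arrays, and the groups did not overlap. The log2 fold change was -0.996 (SE 0.159, adjusted p = 0.00267). Its other probe, dim in neither group, stood at 0.09 (95% interval -0.28 to 0.46). The mean over both probes gave -0.45 and no longer passed (adjusted p = 0.0502), as was the case against a minimum log2 change of 0.5 (0.0593). The gamma, delta and epsilon subunits of the muscle receptor, CHRNG, CHRND and CHRNE, did not pass, at -0.03, 0.21 and 0.20, and CHRNA1 was dim in both groups. CHRNA7, which forms the alpha7 homomer, was dim in both groups at 0.22 on the probe that names it alone. The left-out probe shared by CHRNA7 and CHRFAM7A was dim in neither group, stood at 0.08 and did not pass.

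**Figure D4:**
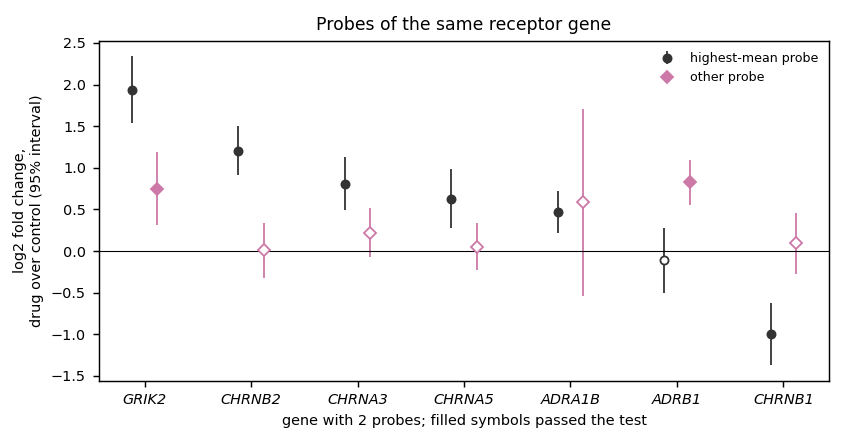
Log2 fold change with its 95% interval (y axis) for the 7 receptor genes that have 2 probes and at least 1 that passed (x axis), with the highest-mean probe as a circle and the other probe as a diamond, filled where the probe passed. Both probes passed for GRIK2 alone, and the CHRNB2 and CHRNB1 probes stand at 1.20 and 0.01 and at -0.996 and 0.09.

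Of 34 receptor genes with more than 1 probe, 7 had a probe that passed, and GRIK2 was the 1 gene among them whose probes all passed. The difference between probes of a gene was not tested. No gene had probes that passed in opposite directions. ADRB1, the beta1-adrenergic receptor that drives cyclic AMP, was the 1 gene of these whose highest-mean probe did not pass, at -0.11 (95% interval -0.50 to 0.28). Its other probe read 7.37, 7.25 and 7.47 on the drug arrays and 6.56, 6.53 and 6.53 on the control arrays, where it was dim, for a log2 fold change of 0.83 (SE 0.116, adjusted p = 0.00147), and this call was lost against a minimum log2 change of 0.5 (0.0848). The level of 1 probe cannot be set against that of another, and which transcripts each probe reads was not used here.

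The G protein-coupled receptors, 38 genes without the pseudogene HTR7P1, had 3 that rose and 1 that fell, where 17.6% of all genes were higher and 17.5% lower. HTR1D, a serotonin receptor coupled to inhibitory G proteins and a target of triptan drugs, read 8.07, 7.97 and 7.90 on the drug arrays and 9.17, 9.38 and 9.49 on the control arrays. All drug arrays lay at least 1 log2 unit below the control arrays. The log2 fold change was -1.36 (SE 0.131, adjusted p = 0.000287), a level 2.58-fold lower. HTR1A, HTR1B and HTR1F, other members of the same subclass, stood at 0.02, 0.36 and 0.03 and did not pass. The HTR1B value rested on spread arrays, 8.81, 8.89 and 8.09 with the drug and 8.60, 8.94 and 7.17 in the control flasks.

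DRD2, a dopamine receptor that lowers cyclic AMP and the main target of antipsychotic drugs, read 9.31, 8.98 and 8.82 on the drug arrays and 7.42, 7.71 and 7.65 on the control arrays. The groups were more than 1 log2 unit apart, and the log2 fold change was 1.44 (SE 0.165, adjusted p = 0.000606). DRD1, dim in the control flasks, stood at 0.33, DRD3 was dim in both groups, and DRD4 stood at -0.10. HTR7P1, a pseudogene copy of the serotonin receptor gene HTR7, read 8.91, 8.89 and 9.15 on the drug arrays and 7.69, 7.42 and 7.46 on the control arrays, a log2 fold change of 1.46 (SE 0.137, adjusted p = 0.000258). HTR7 itself read 9.33, 9.34 and 8.88 with the drug and 8.58, 9.21 and 9.15 in the control flasks, which overlap, at 0.20 (95% interval -0.30 to 0.71). HTR7P1 shares sequence with HTR7 and also overlaps GPRC5D-AS1 in the RefSeq annotation, a gene for which no value was read. The HTR7P1 value is therefore uncertain as a measure of that pseudogene, and neither source of uncertainty was tested.

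CHRM4, a muscarinic receptor coupled to inhibitory G proteins, was dim in both groups. It read 6.72, 6.00 and 6.37 on the drug arrays and 5.59, 5.44 and 5.06 on the control arrays, with a log2 fold change of 1.00 (SE 0.221, adjusted p = 0.0118). The groups did not overlap, but the value was 1.63 with the values as deposited and 0 when dim values were raised to the lower quartile, and its size rests on dim values in both groups. Against a minimum log2 change of 0.5 it did not pass (adjusted p = 0.167). The CHRM4 gene overlaps MDK in the RefSeq annotation. MDK averaged 11.86 in the drug flasks and 12.02 in the control flasks and did not pass. The part of this overlap in the CHRM4 value was not tested. CHRM3 and CHRM1, which act through phospholipase C, did not pass. ADRA1B, an alpha1-adrenergic receptor that acts through the same route, read 10.18, 10.27 and 10.23 on the drug arrays and 9.76, 9.74 and 9.78 on the control arrays. The arrays of each group lay close together, and the log2 fold change was 0.47 (SE 0.107, adjusted p = 0.0138), the smallest among the genes that passed. Its second probe spread from 6.16 to 8.11 over the control arrays and did not pass. The ADRA1B call was lost without drug 3 (adjusted p = 0.0701), with median centring (0.0538), with the mean over both probes (0.161) and against a minimum log2 change of 0.5 (1).

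For the 123 receptor probes that did not pass, the 95% intervals show how large a change in signal could have been missed. The interval lay within 2-fold in either direction for 97 of them (78.9%), compared with 85.7% of all probes that did not pass. The other 26 include GRM4, GRM7, GRIA2, HTR1B, CHRM1 and both probes of CHRNA4, for which a 2-fold change could not be told from none with 3 arrays a group. Among the 76 that were not dim in both groups, 66 had an interval within 2-fold. For the probes dim in both groups, an interval within 2-fold may not bound the change of the transcript.

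Upstream sequence is shown for the receptor genes with the furthest rise in the glycine and kainate families and the furthest fall. It is the DNA before an annotated start, and which start these cells use was not tested. The 250 bases before the start of each gene, the most upstream one where the table gives several, come from RefSeq, assembly GRCh38.p14, in the direction of transcription. The windows are chr4:157075900-157076149 on the plus strand for GLRB, chr6:101393458-101393707 on the plus strand for GRIK2 and chr1:23217503-23217752 on the minus strand for HTR1D. Capitals mark the GC box GGGCGG, the core TGACG of the cAMP response element and the left arm TTCAGCACC of the site of REST, a repressor of neuronal genes, each searched on both strands.
GLRB: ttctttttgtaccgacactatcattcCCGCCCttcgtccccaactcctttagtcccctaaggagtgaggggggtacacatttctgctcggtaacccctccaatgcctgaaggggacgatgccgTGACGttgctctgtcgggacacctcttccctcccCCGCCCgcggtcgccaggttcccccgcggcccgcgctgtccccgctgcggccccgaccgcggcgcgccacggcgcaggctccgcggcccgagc
GRIK2: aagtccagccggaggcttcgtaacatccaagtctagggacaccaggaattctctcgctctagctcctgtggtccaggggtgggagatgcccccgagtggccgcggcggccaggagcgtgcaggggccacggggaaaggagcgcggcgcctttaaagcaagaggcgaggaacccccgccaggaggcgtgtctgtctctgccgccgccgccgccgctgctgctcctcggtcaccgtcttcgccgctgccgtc
HTR1D: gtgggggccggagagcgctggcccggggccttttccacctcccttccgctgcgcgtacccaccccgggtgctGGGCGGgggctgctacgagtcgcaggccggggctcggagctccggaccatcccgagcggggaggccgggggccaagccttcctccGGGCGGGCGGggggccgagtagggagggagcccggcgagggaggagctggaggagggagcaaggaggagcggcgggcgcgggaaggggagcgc
The GLRB window holds 2 GC boxes and 1 cAMP core, the HTR1D window 3 GC boxes, of which a pair overlap, and the GRIK2 window shown none of the 3 motifs, while the other of the 2 GRIK2 windows in the table holds the cAMP core. The GC box is in 42.6% of all 35116 such windows and in 49.1% of the 106 windows of receptor genes, and the cAMP core in 21.2% and 23.6%. The REST arm is in 0.288% of all windows and in 2.83% of the 106. The latter share rests on 3 windows, those of DRD3, GRIA2 and GRM2, none of which passed the test. A window was found for 77 of the 100 receptor genes, and a match is a description of the letters alone.

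Receptors work with partner proteins, and 3 lists of these were read in the same fit, where 35.1% of all genes passed; values are log2 levels and log2 fold changes. Of 35 measured scaffolds, auxiliary subunits and chaperones, 5 rose, 4 fell and 26 did not pass. GRIP1, a scaffold that binds AMPA receptor tails, averaged 7.34 in the drug flasks and 9.78 in the control flasks and changed by -2.44 (SE 0.129, adjusted p = 2.89e-05), or -1.74 as the mean over its probes. NETO2, an auxiliary subunit of kainate receptors such as those of GRIK2, changed by -1.41 (SE 0.139, adjusted p = 0.000319), and HOMER3, which links metabotropic glutamate receptors to calcium stores, by -1.23 (SE 0.189, adjusted p = 0.00223). The 5 that rose, named after their values were seen, were NSF at 1.19, NLGN2 at 1.09, HOMER2 at 0.96, NLGN1 at 0.75 and HOMER1 at 0.62, and DLG1 was the other that fell, at -1.04. Gephyrin, the anchor for GLRB, was on the list and not among those that passed.

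Of 34 measured genes for transmitter synthesis, breakdown and transport, 4 rose, 1 fell and 29 did not pass. ABAT, the transaminase that breaks down GABA, averaged 13.02 in the drug flasks and 9.64 in the control flasks and rose by 3.38 (SE 0.133, adjusted p = 1.44e-05), or 2.61 as the mean over its probes. SLC1A1, a glutamate transporter, rose by 1.67 (SE 0.191, adjusted p = 0.000601), and the monoamine oxidase MAOB, dim in the control flasks, by 1.14 (SE 0.187, adjusted p = 0.00302). The other that rose was MAOA, at 0.65 and dim in both groups, and the 1 that fell was SLC1A3, another glutamate transporter. Both were named after their values were seen.

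Of 42 measured genes of G protein signalling, 14 rose, 7 fell and 21 did not pass. RGS2, which speeds the shut-off of G proteins coupled to phospholipase C, averaged 11.80 in the drug flasks and 8.34 in the control flasks and rose by 3.46 (SE 0.243, adjusted p = 8e-05). RGS4, a relative with the same kind of activity, averaged 11.20 in the drug flasks and 13.53 in the control flasks and changed by -2.33 (SE 0.198, adjusted p = 0.000171). PRKAR2B, a regulatory subunit of the cAMP-dependent protein kinase, averaged 12.69 in the drug flasks and 9.82 in the control flasks and rose by 2.87 (SE 0.201, adjusted p = 7.96e-05).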

How the data were processed

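RNA of 6 flasks was measured with Cy5 on single-colour Phalanx OneArray microarrays, per the labels. The authors deposited 1 linear intensity per probe and array; for background correction and scaling, their method was not given in the sources used here. Groups came from the sample titles. After quantile normalization, negative intensities were put at 0, and log2(intensity + 1) was used. limma 3.58.1 in R 4.3.3 (lmFit, eBayes without trend, two-sided, no covariate) was fitted to all 31741 probes with Benjamini-Hochberg adjustment over all of them, and was tested on simulated data. P-values rest on the spread between flasks, and eBayes draws the variance of each probe toward a value common to all probes. With 3 arrays a group, the number of arrays limits precision. Of all probes, 24740 named 1 gene, 977 several and 6024 none, and symbols were updated through RefSeq (GRCh38.p14), used for names and neighbours. Each gene is represented by whichever of its probes averaged highest across the 6 arrays. Named are all receptor genes that passed, second probes that passed, the furthest departure in each family where none passed, and up to 3 genes per partner or marker list; other genes were named after their values were seen. Members and lists were chosen with earlier results of these data known. Alternatives changed the scaling, the added constant, the floor, the filter on dim probes, the variance model, the minimum change and the probe rule, and left out each array.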

Additional observations from a re-analysis of the deposited data

How the results depend on the processing

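Of the 13 receptor genes that passed, 8 passed in each alternative in which they were tested (CHRNA10, CHRNB2, DRD2, GABRD, GLRB, GRIK2, HTR1D and HTR7P1), and 5 lost the call in at least 1; no call changed sign. Of these 8, CHRNB2, DRD2, GLRB, GRIK2, HTR1D and HTR7P1 had means under the median of all probes and were not tested with that filter. With probes at or above the median of all probes alone, 5 receptor probes passed, 4 higher and 1 lower, for 5 genes, where 51.1% of all such probes passed; fewer members are tested there. Against a minimum log2 change of 0.5, 8 receptor probes passed, 7 higher and 1 lower, for 8 genes, and 4217 of all probes. Leaving out each array in turn gave 2 to 5 lower receptor probes (5 without control 2, 4 without drug 4 or control 6) and 14 to 18 in all. With the values as deposited the median log2 fold change moved to 0.375 over the receptor probes and 0.233 over all probes, and with median centring to 0.244 and 0.102; the cause was not tested. As deposited, 21 receptor probes passed, 19 higher and 2 lower, 15.2% against 27.8% of all probes. No paired analysis was possible because the titles of the drug and control flasks share no number.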

Other observations

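Some receptor probes read low on the same pair of arrays. GRM4, GRM7, HTR1B and GRIA2 each read more than 0.5 log2 units lower on drug 4 than on the other drug arrays, and likewise lower on control 6 than on the other control arrays. GRM7 read 8.68, 8.67 and 7.01 on drug 1, 3 and 4 and 8.73, 7.71 and 6.09 on control 2, 5 and 6. Over all 31741 probes, 232 met this condition for drug 4 with control 6, against 27 to 206 for the other 8 pairs of a drug and a control array. The margin was chosen after the values were seen.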
